A study of Mus musculus with 12 samples.

Results

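The IkB family was described across the 4 groups of a microarray study of RAW264.7 cells, a virus-transformed mouse macrophage line. Its members here were the 3 classical cytoplasmic inhibitors Nfkbia (IkB-alpha), Nfkbib (IkB-beta) and Nfkbie (IkB-epsilon), and the 3 nuclear or atypical members Nfkbiz (IkB-zeta), Bcl3 (Bcl-3) and Nfkbid (IkBNS). They were chosen by gene name: every probe on the array that was not a control and whose annotated name was 1 of these 6. This gave 8 probes for 6 genes, of 55681 probes and 21727 named genes in all. Nfkbib had 3 probes and the other 5 genes had 1 each.

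The 4 groups held 3 arrays each. They were cells given siRNA against lincRNA-Tnfaip3 and then LPS, cells given that siRNA alone, cells given a scrambled control siRNA and then LPS, and cells given the control siRNA alone. The siRNA was applied for 24 h, and the cells were then kept for 4 h with or without Escherichia coli LPS at 1 µg/ml. All groups therefore carried a transfected siRNA, and all came from a single cell line. Nothing in the labels makes the replicates separate cultures. The p-values therefore cover the spread among the arrays of a group, and that spread may be technical only. No probe carried the name of lincRNA-Tnfaip3, so the depletion of the lincRNA was not checked here and the group names describe the siRNA that was given.

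NF-kB dimers are held in the cytoplasm of resting macrophages by the classical IkB proteins, whose ankyrin repeats cover the nuclear localisation signals of the dimers. LPS acts through Toll-like receptor 4 and the IkB kinase (IKK) complex, which phosphorylates the IkB proteins and so marks them for ubiquitination and proteasomal degradation. The freed dimers enter the nucleus and switch on target genes that include IkB genes themselves, a negative feedback loop. Atypical IkB proteins act in the nucleus on DNA-bound p50 or p52 and can raise or lower transcription there.

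The probes behind the results are shown first, since each value below is the signal of a single 60-base oligonucleotide. Positions are those of the array files, on mm9, and the files give no exon or UTR annotation for them. The Nfkbia probe mapped to chr12:56590945-56591440 on the minus strand, a genomic span of 496 bases for 60 bases of probe, and the Nfkbiz probe mapped to chr16:55817859-55817918 on the minus strand. Of the 3 Nfkbib probes, the brightest lay at chr7:29544160-29544219 and a second at chr7:29545252-29546647, both on the minus strand, the second with a genomic span of 1396 bases. Each sequence is given 5′ to 3′ as the array files hold it, because these probes carry the Nfkbia and Nfkbiz results and the comparison of Nfkbib probes.
Nfkbia probe: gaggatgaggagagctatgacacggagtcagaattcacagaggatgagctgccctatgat
Nfkbiz probe: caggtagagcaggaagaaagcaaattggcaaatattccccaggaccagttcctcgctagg
Nfkbib brightest probe: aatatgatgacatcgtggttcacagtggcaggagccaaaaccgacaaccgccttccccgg
Nfkbib second probe: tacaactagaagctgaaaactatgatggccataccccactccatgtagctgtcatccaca
The Nfkbie probe lay at chr17:45700000-45700059 on the plus strand, the Bcl3 probe at chr7:20393826-20393885 on the minus strand and the Nfkbid probe at chr7:31213705-31213764 on the plus strand. The third Nfkbib probe lay at chr7:29543270-29543329 on the minus strand.

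Promoter sequence bears on the family because several IkB genes are known NF-kB targets. The 250 bases before each annotated start in RefSeq (GRCm38.p6) were searched on both strands for the kB consensus, the DNA motif that NF-kB dimers bind. Of 32851 mouse promoters, 7.25% held at least 1 match and 1.03% held 2 or more. A promoter was given for 5 of the 6 members, and Nfkbiz had no entry. Nfkbia and Nfkbie each had 1 match, and they are shown with the match in capitals, Nfkbia from chr12:55492648-55492897 on the minus strand and Nfkbie from chr17:45555450-45555699 on the plus strand.
Nfkbia promoter: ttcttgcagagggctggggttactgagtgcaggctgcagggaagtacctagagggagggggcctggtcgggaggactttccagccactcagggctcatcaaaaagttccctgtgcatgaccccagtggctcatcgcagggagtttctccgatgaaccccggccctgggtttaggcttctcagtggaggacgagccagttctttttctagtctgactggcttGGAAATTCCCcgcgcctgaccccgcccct
Nfkbie promoter: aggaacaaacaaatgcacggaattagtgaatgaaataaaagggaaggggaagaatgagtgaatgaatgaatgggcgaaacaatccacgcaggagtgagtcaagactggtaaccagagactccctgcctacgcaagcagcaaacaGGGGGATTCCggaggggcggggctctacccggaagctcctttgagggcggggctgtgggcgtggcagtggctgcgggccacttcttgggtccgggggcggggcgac
The Nfkbia match lay 29 to 20 bases before the start and the Nfkbie match 106 to 97 bases before it. Nfkbid had 3 annotated starts, and the second had 2 matches, GGGACTTCCC at 226 to 217 bases and GGAATTCCCC at 181 to 172 bases before the start. No match lay in the Nfkbib or Bcl3 window, which says only that these letters were not in those 250 bases. A match describes sequence and is not a measurement of binding.

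Values are log2 of the deposited processed intensity minus the 75th percentile of the same array, called relative log2 intensity below, so that 0 is the level of that percentile. A relative log2 intensity compares arrays for 1 probe and does not rank genes against each other. All 8 member probes were well above background on all 12 arrays, and none was saturated. The arrays correlated at 0.961 to 0.991 across features. They lay on 3 slides. Control-siRNA arrays 1 and 2 without LPS made up slide 1, and lincRNA-siRNA arrays 2 and 3 with LPS made up slide 3. The other 8 arrays were on slide 2. Slide therefore overlaps with group, and the slide 1 arrays had 27196 and 29450 probes well above background, against 32701 to 36389 on the other 10. The macrophage markers Cd68, Csf1r, Itgam and Lyz2 were above background on all 12 arrays, whereas the epithelial markers Epcam and Cdh1, the B-cell marker Ms4a1 and the fibroblast marker Pdgfra were above background on none. The other fibroblast markers, Col1a2 and Col1a1, were above background on 11 and 3 arrays, and the epithelial marker Krt18 on 1. Above background on all 12 arrays were 2 of 4 T-cell markers (Cd3e and Cd4), 1 of 3 B-cell markers (Cd79a) and 2 of 3 endothelial markers (Pecam1 and Kdr). The summed intensity of the T-cell markers, as a multiple of the 75th percentile, was 11.1 to 15.5 and 10.0 to 13.8 in lincRNA-siRNA cells with and without LPS, against 10.3 to 15.4 and 5.80 to 10.6 in control-siRNA cells with and without LPS. In the same order of groups, the endothelial sum was 13.9 to 17.4, 10.7 to 17.0, 13.1 to 17.0 and 10.3 to 12.04, and the sum of the 8 macrophage markers above background on all arrays was 626 to 707, 555 to 630, 521 to 592 and 424 to 513. The B-cell sum was 0.196 to 0.324, 0.151 to 0.226, 0.203 to 0.267 and 0.142 to 0.188, the fibroblast sum was 0.356 to 0.518, 0.306 to 0.359, 0.269 to 0.369 and 0.0934 to 0.290, and the epithelial sum was 0.0325 to 0.0529, 0.0385 to 0.0586, 0.0274 to 0.0678 and 0.0466 to 0.0917. The macrophage sums of control-siRNA cells without LPS lay below those of every other group, and the T-cell, endothelial, B-cell and fibroblast ranges of that group began lowest. Not every marker in the macrophage sum was lowest in that group. In the same order of groups, mean relative log2 intensity was 8.06, 8.26, 8.06 and 8.13 for Csf1r, and 6.69, 6.31, 5.90 and 5.41 for Lyz2. The part of these markers in the results below was not tested. As in any bulk RNA measurement, fewer cells expressing a gene and less of its RNA per cell cannot be told apart.

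**Figure D1:**
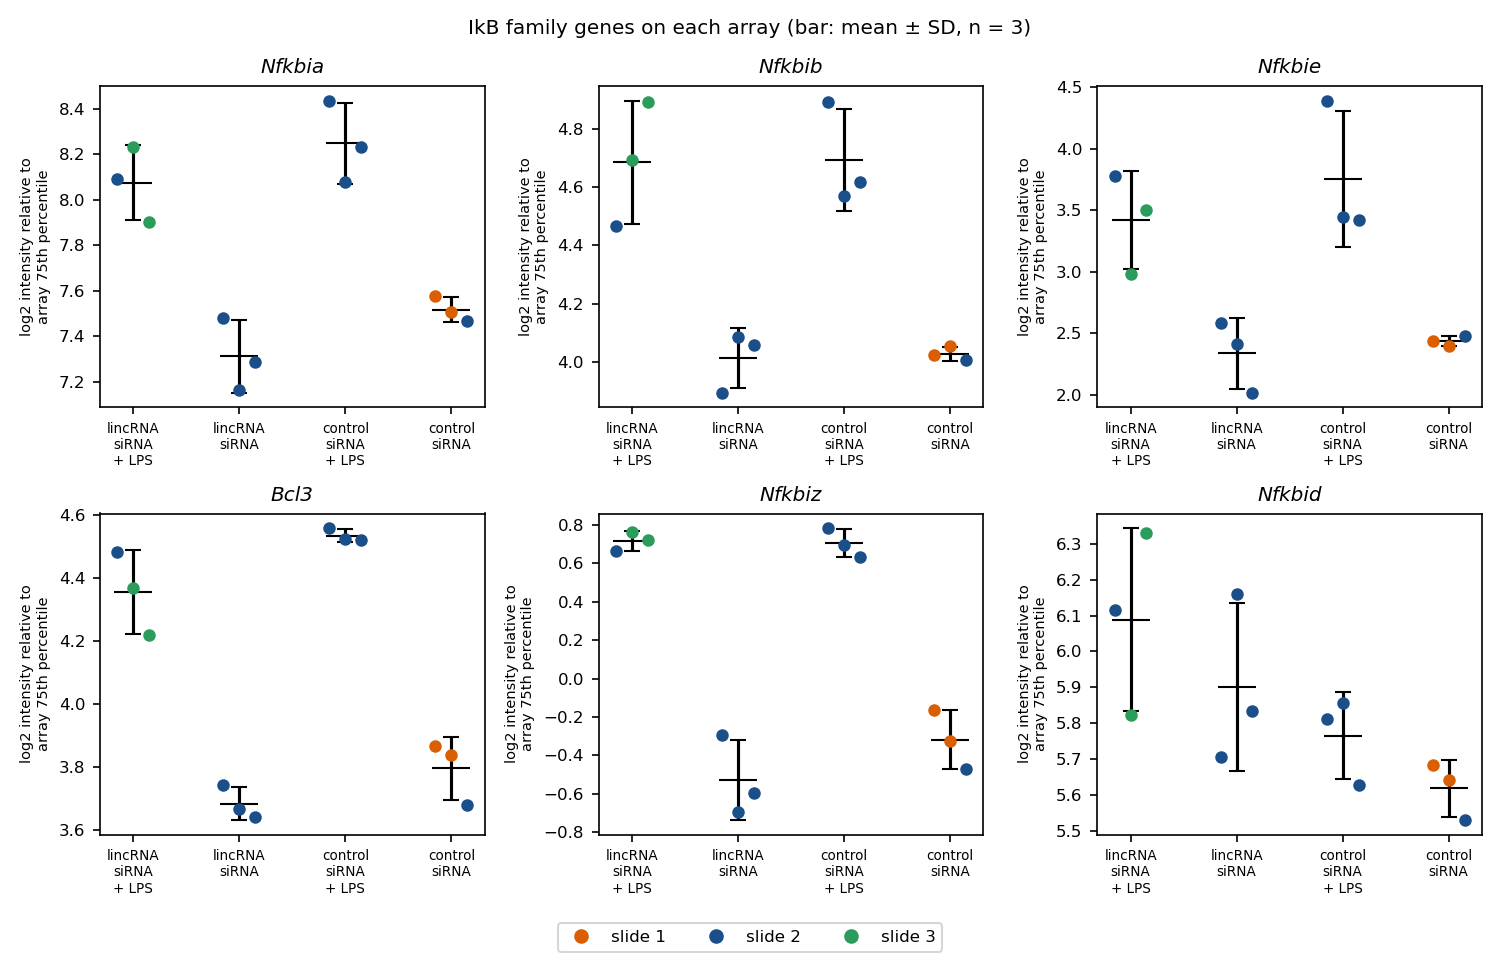
Relative log2 intensity of the 6 IkB members on each of the 12 arrays, 1 panel per gene, with the groups along the horizontal axis, the mean ± SD of each group (n = 3) as a bar and the slide as colour. In both siRNA conditions the LPS arrays of Nfkbia, Nfkbib, Nfkbie, Nfkbiz and Bcl3 lie above those without LPS, and those of Nfkbid overlap them.

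LPS raised most of the family in control-siRNA cells. Of 6 members, 5 passed the test (adjusted p under 0.05, limma with Benjamini-Hochberg adjustment over 23909 features) and all 5 were higher with LPS. Their rises ran between 1.59-fold for Nfkbib and 2.49-fold for Nfkbie. Nfkbid did not pass. Over all features tested, 5.26% passed in either direction, 3.22% higher and 2.03% lower.

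Nfkbia encodes the prototype IkB, which is degraded within minutes of a stimulus and made again under NF-kB control. Its relative log2 intensity was 8.44, 8.08 and 8.23 on the control-siRNA arrays with LPS, against 7.58, 7.51 and 7.47 without LPS. Every LPS array was higher than every array without LPS. The rise was 0.73 ± 0.13 on the log2 scale (SE, n = 3 each), or 1.66-fold, with adjusted p = 0.0115. A fit with slide as a block gave 0.78, with adjusted p = 0.200.

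Nfkbib encodes an inhibitor that is typically degraded more slowly than IkB-alpha. Its brightest probe read 4.89, 4.57 and 4.62 with LPS in control-siRNA cells, against 4.02, 4.05 and 4.01 without LPS. These groups did not overlap, and the rise was 0.67 ± 0.13 on the log2 scale (SE, n = 3 each), 1.59-fold, with adjusted p = 0.0190. Adding slide as a block gave a change of 0.69, with adjusted p = 0.177. The other 2 probes of Nfkbib gave smaller differences in the same direction, 0.44 ± 0.11 (adjusted p = 0.0580) for the second probe and 0.38 ± 0.20 (adjusted p = 0.271) for the third, and neither passed (SE, n = 3 each, adjusted over all kept probes). The third probe was the dimmest, with group means between -1.41 and -0.74. The mean of the 3 probes differed by 0.50 and did not pass either, with adjusted p = 0.0522.

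Nfkbie encodes IkB-epsilon, a slower-acting NF-kB target that gives delayed feedback. It read 4.39, 3.45 and 3.43 with LPS in control-siRNA cells, against 2.44, 2.40 and 2.48 without LPS. The groups did not overlap, although array 1 with LPS stood well above the other two. The rise was 1.32 ± 0.28 on the log2 scale (SE, n = 3 each), 2.49-fold, with adjusted p = 0.0277. Without that array the rise was 1.00, with adjusted p = 0.0435. The change with slide as a block was 1.28, with adjusted p = 0.373.

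Among the nuclear members, Nfkbiz encodes IkB-zeta, which is strongly induced through Toll-like receptors and is needed for part of the secondary response, including Il6. It read 0.78, 0.70 and 0.63 with LPS in control-siRNA cells, against -0.16, -0.32 and -0.47 without LPS. The groups were clearly apart. The rise was 1.02 ± 0.12 on the log2 scale (SE, n = 3 each), 2.03-fold, with adjusted p = 0.00131. The rise with slide as a block was 1.17, with adjusted p = 0.0264. In control-siRNA cells the block estimate rests on a single array without LPS, array 3, because slide 1 holds no other group.

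Bcl3 encodes a nuclear protein that binds p50 and p52 homodimers. It read 4.56, 4.52 and 4.52 with LPS in control-siRNA cells, against 3.87, 3.84 and 3.68 without LPS. The LPS arrays differed among themselves by less than the arrays without LPS did. The rise was 0.74 ± 0.10 on the log2 scale (SE, n = 3 each), 1.67-fold, with adjusted p = 0.00220, and with slide as a block 0.85, with adjusted p = 0.0203.

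Nfkbid encodes IkBNS, a nuclear member known to restrain Il6 transcription in mouse macrophages. It read 5.81, 5.86 and 5.63 with LPS in control-siRNA cells, against 5.68, 5.64 and 5.53 without LPS. The groups overlapped. The difference was 0.15 ± 0.16 on the log2 scale (SE, n = 3 each), with a 95% interval between -0.20 and 0.50 and adjusted p = 0.585.

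In 5 of 6 members the control-siRNA arrays with and without LPS did not overlap, against 30.6% of all features tested. Array 1 of the control-siRNA cells with LPS was the highest of its group for 5 of the 6 members, all but Nfkbid. The call of Nfkbia was lost without control-siRNA array 2, and those of Nfkbib and Nfkbie were lost without control-siRNA array 1 and without array 2, both arrays of slide 1. Nfkbib also lost its call without array 3 of the control-siRNA cells with LPS. Nfkbiz and Bcl3 passed whichever single array was left out. With slide as a block, 2 of 6 members passed, and 230 of 23909 features passed. On slide 2 alone, where a single control-siRNA array without LPS remained, the estimates were the same as with the block. The calls of Nfkbiz and Bcl3 with the block did not carry over to slide 2 alone. Scaling to each array's median in place of its 75th percentile lowered the median change of all features by a shift of -0.25. With that scaling Nfkbiz was the only 1 of 6 members that passed, while 1439 of 23909 features passed, against 1257 in the main fit. The Nfkbid difference turned to -0.11. Without the filter on dim probes 3 of 6 passed, Nfkbib (adjusted p = 0.0514) and Nfkbie (adjusted p = 0.0549) no longer. In that fit 717 of 36282 features passed.

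**Figure D2:**
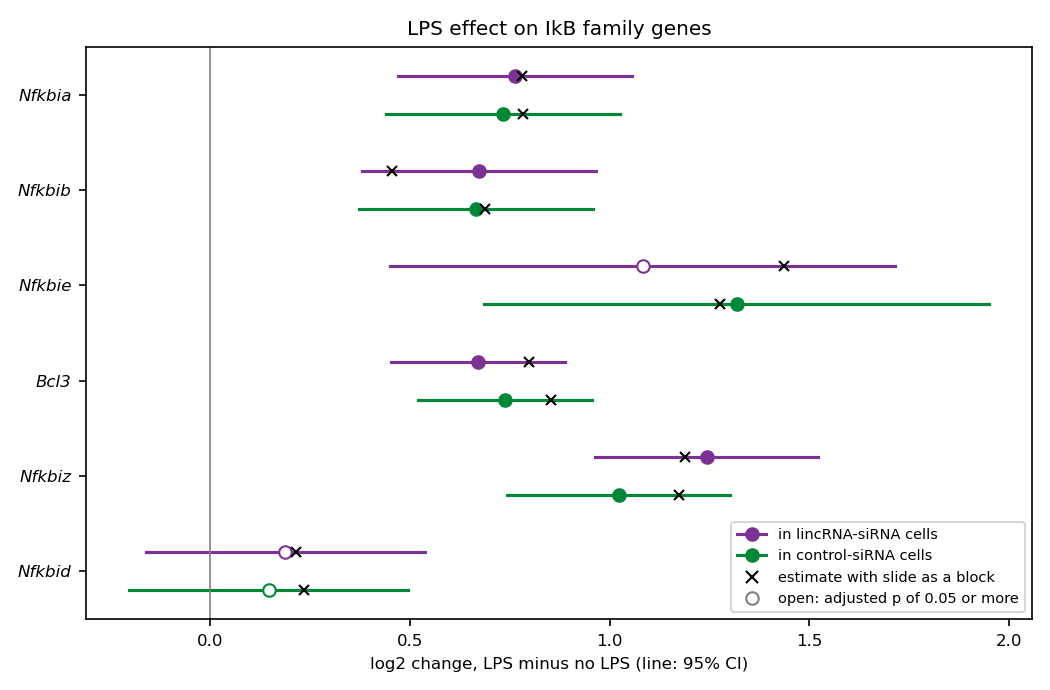
LPS effect on each IkB member in lincRNA-siRNA cells and in control-siRNA cells, as log2 change with its 95% interval from limma, open where the member did not pass and with a cross at the value with slide as a block. Nfkbie has the widest intervals, and the interval of Nfkbid spans 0 in both.

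In cells given siRNA against lincRNA-Tnfaip3, LPS raised 4 of the 6 members (limma with Benjamini-Hochberg adjustment over 23909 features), which were Nfkbiz, Nfkbia, Bcl3 and Nfkbib. Nfkbie and Nfkbid did not pass. Over all features tested, 1.82% passed in either direction, 1.48% higher and 0.339% lower.

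Nfkbia read 8.09, 8.23 and 7.90 with LPS in lincRNA-siRNA cells, against 7.48, 7.16 and 7.29 without LPS. The groups did not overlap. The rise was 0.76 ± 0.13 on the log2 scale (SE, n = 3 each), 1.70-fold, with adjusted p = 0.0165, and with slide as a block 0.78, with adjusted p = 0.243.

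The brightest Nfkbib probe read 4.47, 4.69 and 4.89 with LPS in lincRNA-siRNA cells, against 3.89, 4.08 and 4.06 without LPS. All LPS arrays were higher than the arrays without LPS. The rise was 0.67 ± 0.13 on the log2 scale (SE, n = 3 each), 1.59-fold, with adjusted p = 0.0315. The second probe rose by 0.61 ± 0.11, with adjusted p = 0.0254, and the third differed by 0.50 ± 0.20, with adjusted p = 0.444. With slide as a block the change of the brightest probe was 0.46, with adjusted p = 0.639, and the 1 lincRNA-siRNA array with LPS on slide 2 was the lowest of its group for this probe.

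Nfkbie read 3.78, 2.99 and 3.50 with LPS in lincRNA-siRNA cells, against 2.58, 2.41 and 2.02 without LPS. The groups did not overlap, but both were widely spread. The difference was 1.08 ± 0.28 on the log2 scale (SE, n = 3 each), with a 95% interval between 0.45 and 1.71 and adjusted p = 0.124. It passed with normexp background correction, at 1.05 with adjusted p = 0.0305, and when array 1 of the control-siRNA cells with LPS was left out, with adjusted p = 0.0400. That array is in neither of the groups compared, and it enters through the shared estimate of spread.

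Nfkbiz read 0.66, 0.76 and 0.72 with LPS in lincRNA-siRNA cells, against -0.29, -0.70 and -0.59 without LPS. The groups were clearly apart. The rise was 1.24 ± 0.12 on the log2 scale (SE, n = 3 each), 2.37-fold, with adjusted p = 0.000646, and with slide as a block 1.19, with adjusted p = 0.0349.

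Bcl3 read 4.48, 4.37 and 4.22 with LPS in lincRNA-siRNA cells, against 3.74, 3.67 and 3.64 without LPS. These groups too did not overlap. The rise was 0.67 ± 0.10 on the log2 scale (SE, n = 3 each), 1.59-fold, with adjusted p = 0.00642, and with slide as a block 0.80, with adjusted p = 0.0356.

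Nfkbid read 6.11, 5.82 and 6.33 with LPS in lincRNA-siRNA cells, against 5.71, 6.16 and 5.83 without LPS. The groups overlapped. The difference was 0.19 ± 0.16 on the log2 scale (SE, n = 3 each), with a 95% interval between -0.16 and 0.54 and adjusted p = 0.794.

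In 5 of 6 members the lincRNA-siRNA arrays with and without LPS did not overlap, against 15.2% of all features tested. Nfkbia lost its call without array 2 or 3 of the lincRNA-siRNA cells and without array 1 or 2 of those cells with LPS. Nfkbib lost its call in 9 of 12 fits that each left out 1 array. With slide as a block, the 2 members that passed were Nfkbiz and Bcl3, as in control-siRNA cells, and 160 of 23909 features passed. On slide 2 alone, where a single lincRNA-siRNA array with LPS remained, the estimates were the same as with the block. Here too the calls of Nfkbiz and Bcl3 with the block did not carry over to slide 2 alone. With scaling to the median Nfkbiz alone passed, and 297 of 23909 features passed, against 434 in the main fit. Without the filter on dim probes 3 of 6 passed, Nfkbib no longer (adjusted p = 0.0889), and 301 of 36282 features passed. With normexp 5 of 6 passed, and 434 of 23909 features passed.

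The design also asks whether the lincRNA siRNA altered the family itself. No member passed the test between the siRNAs, with LPS or without it: 0 of 6 passed in each comparison (limma with Benjamini-Hochberg adjustment), and 0% of all features tested passed. At an unadjusted p under 0.05 there were 1115 features with LPS and 4372 without it, and none of the 6 members was among them. The 95% intervals below give the range of difference that 3 arrays a group allow.

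With LPS, the difference between lincRNA-siRNA and control-siRNA cells was -0.17 on the log2 scale for Nfkbia (95% interval -0.47 to 0.12). It was -0.01 for Nfkbib (-0.30 to 0.28) and 0.01 for Nfkbiz (-0.27 to 0.29). These last values lie close to 0. The Nfkbie difference of -0.33 had the widest interval (-0.97 to 0.30). Nfkbid averaged 6.09 ± 0.25 in lincRNA-siRNA cells and 5.76 ± 0.12 in control-siRNA cells (SD, n = 3 each), a difference of 0.32 (-0.03 to 0.67) with adjusted p = 0.978. Bcl3 averaged 4.36 ± 0.13 in lincRNA-siRNA cells and 4.53 ± 0.02 in control-siRNA cells (SD, n = 3 each), a difference of -0.18 (-0.40 to 0.04). All 3 lincRNA-siRNA arrays of Bcl3 were below the control-siRNA arrays, and the groups were apart in this way, in either direction, for 11.3% of all features. However, lincRNA-siRNA arrays 2 and 3 lay on slide 3 and the control-siRNA arrays on slide 2. With slide as a block the differences were -0.16 for Nfkbia, -0.23 for Nfkbib and 0.02 for Nfkbie. They were -0.04 for Nfkbiz, 0.35 for Nfkbid and -0.05 for Bcl3.

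Without LPS, the difference between lincRNA-siRNA and control-siRNA cells was -0.21 for Nfkbia (95% interval -0.50 to 0.09), -0.02 for Nfkbib (-0.31 to 0.28) and -0.10 for Nfkbie (-0.73 to 0.53). It was -0.21 for Nfkbiz (-0.49 to 0.07) and -0.11 for Bcl3 (-0.33 to 0.11). Nfkbid averaged 5.90 ± 0.23 in lincRNA-siRNA cells and 5.62 ± 0.08 in control-siRNA cells (SD, n = 3 each), a difference of 0.28 (-0.07 to 0.63) with adjusted p = 0.347. Nfkbid was the only member whose groups did not overlap here, against 21.8% of all features. In the main fit Nfkbid was also the only member with a positive difference in this comparison. Control-siRNA arrays 1 and 2 lay on slide 1 and the other arrays compared on slide 2. With slide as a block the differences were -0.15 for Nfkbia, 0.00706 for Nfkbib and -0.14 for Nfkbie. They were -0.06 for Nfkbiz, 0.37 for Nfkbid and 0.00391 for Bcl3. These siRNA comparisons share no arrays with each other, but each shares its arrays with the LPS comparisons above.

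The change in the LPS effect with the siRNA, the interaction, passed for 0 of 6 members and for 0% of all features tested, with 905 features and no member at an unadjusted p under 0.05. The LPS effect in lincRNA-siRNA cells minus that in control-siRNA cells was 0.03 for Nfkbia (95% interval -0.38 to 0.45), 0.01 for Nfkbib (-0.41 to 0.42) and -0.24 for Nfkbie (-1.13 to 0.66). It was 0.22 for Nfkbiz (-0.17 to 0.61), -0.07 for Bcl3 (-0.38 to 0.24) and 0.04 for Nfkbid (-0.45 to 0.54). The Nfkbie call in control-siRNA cells and its missing call in lincRNA-siRNA cells are therefore not shown to differ.

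**Figure D3:**
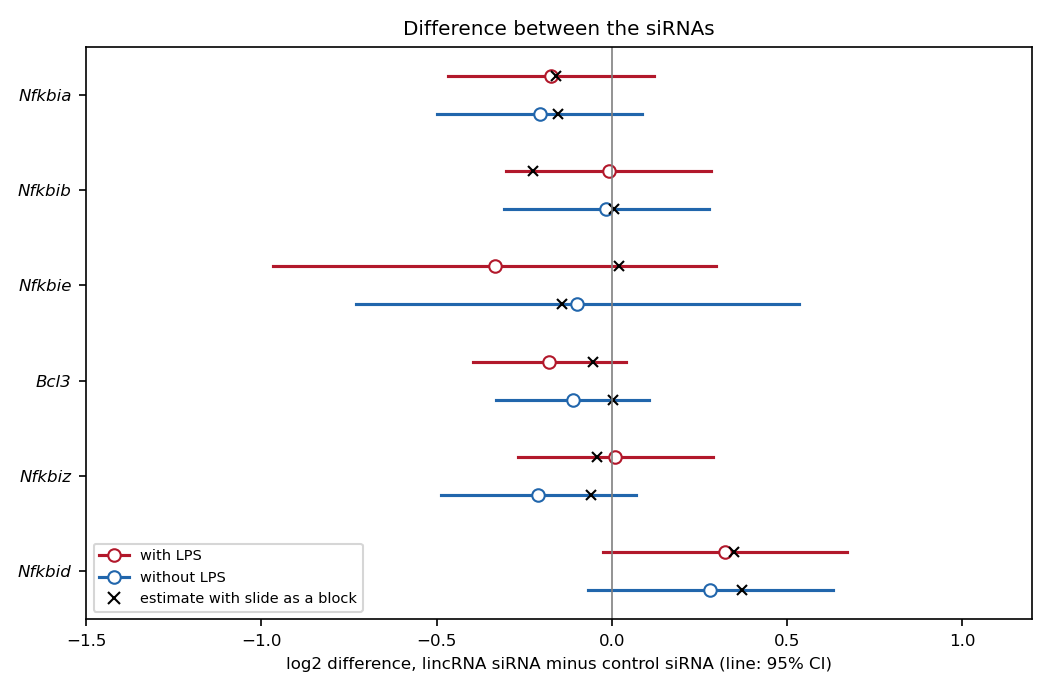
Difference between lincRNA-siRNA and control-siRNA cells for each IkB member, with LPS and without it, as log2 difference with its 95% interval from limma and a cross at the value with slide as a block. Every interval spans 0, and Nfkbid is the member with the most positive difference in both conditions.

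Across the 4 groups, the order of group means was the same for Nfkbia, Nfkbie and Bcl3: control siRNA with LPS highest, then lincRNA siRNA with LPS, control siRNA, and lincRNA siRNA. Nfkbib followed that order too, with its means of 4.68 and 4.69 with LPS nearly equal in lincRNA-siRNA and control-siRNA cells. Nfkbiz differed in its top place, with 0.72 ± 0.05 in lincRNA-siRNA cells with LPS and 0.70 ± 0.07 in control-siRNA cells with LPS (SD, n = 3 each). In each of these orders, neighbours that differ only in siRNA did not pass the test of their difference. Nfkbid had another order, lincRNA siRNA with LPS, lincRNA siRNA, control siRNA with LPS and control siRNA. For Nfkbid no difference between neighbours that was tested passed.

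For each member that passed with LPS, the genes with the most similar pattern were sought by the root mean square difference of centred relative log2 intensities over the 12 arrays, among 14901 candidates. The nearest to Nfkbia were Noct (0.0770), Tnfsf9 (0.115) and Etv3 (0.117). Those to Bcl3 were Tnfsf9 (0.0961), Stat5a (0.0986) and Noct (0.103), so Noct and Tnfsf9 stood near both. Those to Nfkbib were Smox (0.104), Ppp1r15a (0.109) and Gsap (0.112). The nearest to Nfkbiz were Cflar (0.137), Nupr1 (0.151) and Cd274 (0.164), and to Nfkbie Cd83 (0.199), Malt1 (0.199) and Hivep3 (0.201). These values describe likeness over 12 arrays that share slides and groups.

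The partners of the IkB proteins were read from lists of pathway genes. Over all features tested, 1.48% rose and 0.339% fell with LPS in lincRNA-siRNA cells, and 3.22% rose and 2.03% fell in control-siRNA cells. At these shares, a small list in which no gene passed does not stand apart from all features. Of the 5 NF-kB subunits, 1 rose with LPS in lincRNA-siRNA cells and 3 rose in control-siRNA cells, and none fell. Their median changes were 0.42 in lincRNA-siRNA cells, where that of all features was -0.01, and 1.03 in control-siRNA cells, where it was 0.04. Nfkb2, the precursor of the p52 that Bcl-3 binds, rose by 0.93 in lincRNA-siRNA cells (adjusted p = 0.00843) and by 1.15 in control-siRNA cells (adjusted p = 0.00142). Nfkb1, the precursor of p50, differed by 0.85 in lincRNA-siRNA cells (adjusted p = 0.136) and rose by 1.03 in control-siRNA cells (adjusted p = 0.0307). Rel differed by 0.29 in lincRNA-siRNA cells (adjusted p = 0.921) and rose by 2.49 in control-siRNA cells (adjusted p = 0.0160), but it was well above background on only 1 of 3 control-siRNA arrays without LPS. Rela and Relb did not pass in either siRNA. A fit with slide as a block gave medians of 0.79 in lincRNA-siRNA cells and 0.67 in control-siRNA cells, and Rel values of 0.94 in lincRNA-siRNA cells (adjusted p = 0.384) and 1.28 in control-siRNA cells (adjusted p = 0.120). None of the 5 passed in that fit.

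Upstream of the IkB proteins, 1 of 5 IKK and IKK-related kinase genes rose with LPS, Ikbke, by 1.33 in lincRNA-siRNA cells (adjusted p = 0.0114) and 1.10 in control-siRNA cells (adjusted p = 0.0173). Chuk, Ikbkb and Ikbkg, the subunits of the classical IKK complex, did not pass in either, nor did Tbk1. None of 5 measured genes of the SCF-bTrCP ubiquitin ligase, which marks phosphorylated IkB for degradation, passed with LPS, and their median changes were -0.05 in lincRNA-siRNA cells and -0.09 in control-siRNA cells. Among 6 further IkB-binding or IkB-like genes none passed either, with medians of -0.12 in lincRNA-siRNA cells and -0.10 in control-siRNA cells. Of all features tested, only 1.82% passed in lincRNA-siRNA cells and 5.26% in control-siRNA cells. With slide as a block, the ligase median was 0.0941 in lincRNA-siRNA cells and -0.21 in control-siRNA cells, the IkB-binding median was 0.11 and -0.29 in the same order, and Ikbke did not pass, at adjusted p = 0.274 in lincRNA-siRNA cells and 0.113 in control-siRNA cells.

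Of 10 other feedback genes of NF-kB, 1 rose with LPS in lincRNA-siRNA cells, and 2 rose and 1 fell in control-siRNA cells. The shares of all features were 1.48% higher in lincRNA-siRNA cells, and 3.22% higher and 2.03% lower in control-siRNA cells. Their median changes were 0.16 in lincRNA-siRNA cells and 0.13 in control-siRNA cells. Tnfaip3, which encodes the ubiquitin-editing enzyme A20, rose by 1.30 in lincRNA-siRNA cells (adjusted p = 0.00941) and 1.33 in control-siRNA cells (adjusted p = 0.00502). Tnip1, an A20-binding protein, differed by 0.48 in lincRNA-siRNA cells (adjusted p = 0.136) and rose by 0.67 in control-siRNA cells (adjusted p = 0.0297), where 1 array lacked a value because of an outlier flag. Pdlim2, a nuclear ubiquitin ligase for p65, had a change of -0.30 in lincRNA-siRNA cells (adjusted p = 0.409) and fell by 0.71 in control-siRNA cells (adjusted p = 0.00820). With slide as a block, 0 of 10 passed in either siRNA, and the medians were 0.30 in lincRNA-siRNA cells and 0.0808 in control-siRNA cells.

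Downstream, 7 genes known to depend on IkB-zeta were listed, and Il12b was left out as too dim. Of the 6 measured, 4 rose with LPS in lincRNA-siRNA cells, with a median change of 3.86, and all 6 rose in control-siRNA cells, with a median change of 4.01. Il6 rose by 6.01 in lincRNA-siRNA cells (adjusted p = 3.00e-05) and 6.83 in control-siRNA cells (adjusted p = 1.02e-05). Csf2, encoding the growth factor GM-CSF, rose by 4.40 (adjusted p = 0.000479) in lincRNA-siRNA cells and 5.09 (adjusted p = 0.000140) in control-siRNA cells. Csf3, encoding G-CSF, rose by 3.74 (adjusted p = 0.00286) in lincRNA-siRNA cells and 4.40 (adjusted p = 0.000645) in control-siRNA cells. The genes that did not pass in lincRNA-siRNA cells were Ccl2, at 2.61 (adjusted p = 0.0630), and Lcn2, at 0.50 (adjusted p = 0.123). Csf2 and Edn1 were well above background on 2 of 3 lincRNA-siRNA and 1 of 3 control-siRNA arrays without LPS, so their changes rest on dim values. With slide as a block, 3 of 6 passed in lincRNA-siRNA cells and 4 of 6 in control-siRNA cells. Of 5 measured primary response genes, which need no new protein, 2 rose in lincRNA-siRNA cells, and 3 rose and 1 fell in control-siRNA cells. For both lists, the shares of all features were 1.48% higher in lincRNA-siRNA cells, and 3.22% higher and 2.03% lower in control-siRNA cells. Tnf rose by 1.37 (adjusted p = 0.000107) in lincRNA-siRNA cells and 1.38 (adjusted p = 6.41e-05) in control-siRNA cells, and Cxcl2, a neutrophil chemokine gene, by 2.78 (adjusted p = 0.00284) in lincRNA-siRNA cells and 3.62 (adjusted p = 0.000342) in control-siRNA cells. Ier3 differed by 0.91 (adjusted p = 0.104) in lincRNA-siRNA cells and rose by 0.92 (adjusted p = 0.0474) in control-siRNA cells, and the gene that fell was Fos. Of these 5 genes, Tnf passed with slide as a block in lincRNA-siRNA cells and Tnf and Cxcl2 in control-siRNA cells, and Fos (adjusted p = 0.225) and Ier3 (adjusted p = 0.410) lost their calls in control-siRNA cells. Cxcl2 lost its call in lincRNA-siRNA cells, at adjusted p = 0.0630. No gene of these 7 lists passed between the siRNAs, with or without LPS, or in the interaction.

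**Figure D4:**
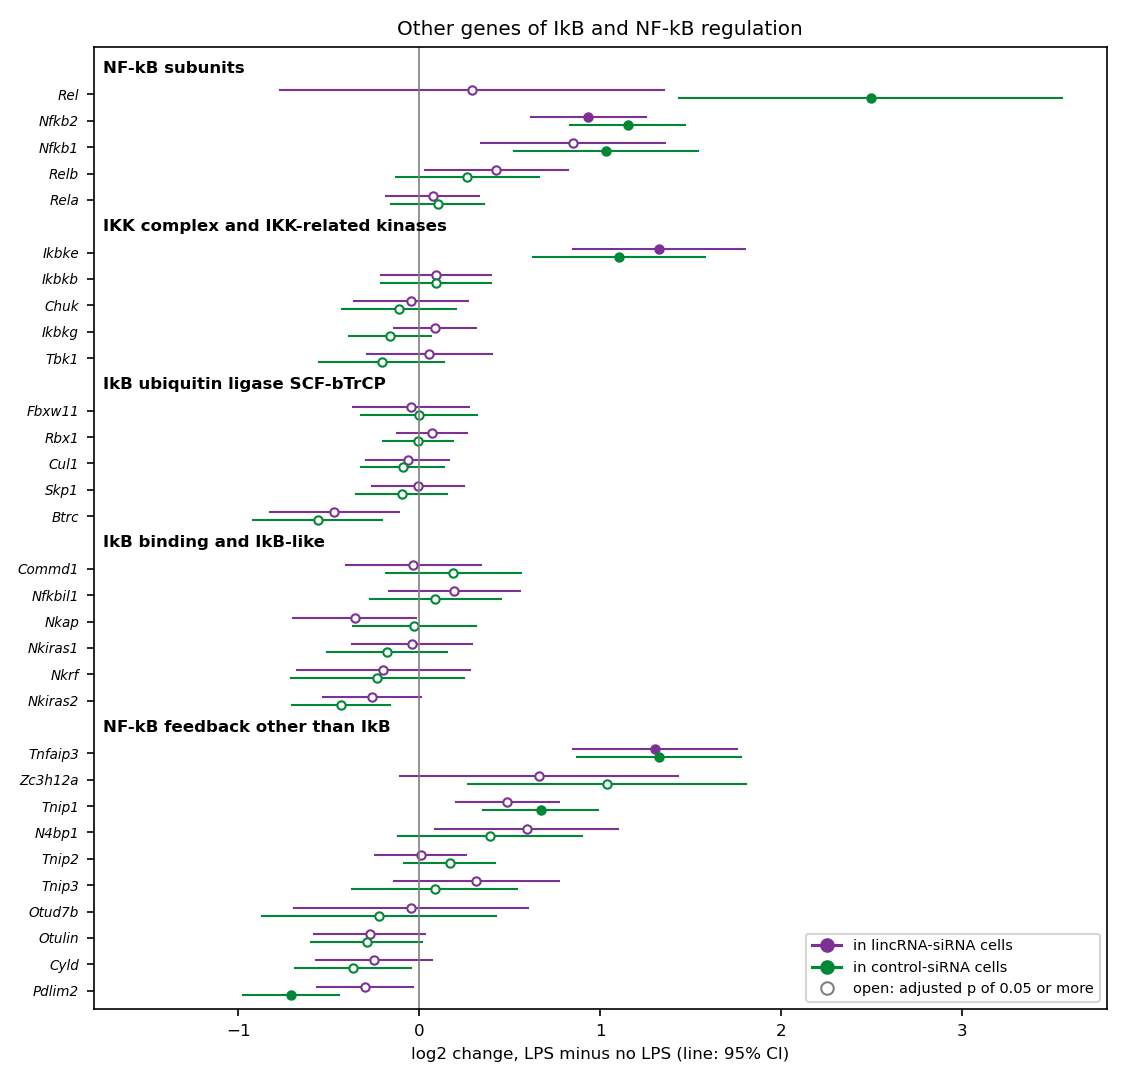
LPS effect on the genes of 5 pathway lists upstream of or beside the IkB proteins, in lincRNA-siRNA cells and in control-siRNA cells, as log2 change with its 95% interval from limma, open where the gene did not pass. Nfkb2, Ikbke and Tnfaip3 are filled in both siRNA conditions, and the ubiquitin ligase genes are open in both.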

How the data were processed

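Total RNA of 12 RAW264.7 samples, labelled with Cy3, was measured on single-colour arrays. The deposited spot intensity values came from Agilent Feature Extraction 10.7.1.1, background-subtracted and detrended within each array, per the file headers. The authors also deposited a table of log2 values, normalized in a way that the sources here do not give. Its columns share a median of 4.76 and follow the scanner signals (rank correlation at least 0.999989), and it was an alternative.

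The arrays each carried 59305 non-control spots, none saturated. The 104 to 258 outlier spots per array were left out, spots of a probe were averaged, and log2 intensity was taken minus the 75th percentile of the array (268 to 410). Probes were kept where some group had all 3 arrays well above background (33151 of 55681), and a gene was read from its kept probe with the highest mean. Of the probes, 26582 were matched by accession to RefSeq names (GRCm38.p6), which updated 2892 symbols. limma 3.58.1 in R 4.3.3 was fitted to all 12 arrays with a mean per group (8 residual degrees of freedom), with Benjamini-Hochberg adjustment over 23909 features. It was tested on simulated data that held no slide effect, so that test does not bear on the overlap of slide and group. The number of arrays limits the precision.

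The members and the lists of pathway genes and markers were chosen with earlier results of these data known, so counts over them are descriptions. Named genes were all members, up to 3 genes of each list with the largest changes among those that passed with LPS, and the 3 nearest genes in pattern to each member that passed; other list genes were named after their values were seen. Alternatives were other scalings, normexp background correction, other filters, the mean of a gene's probes, the authors' table, slide, a replicate block and leaving out each array. A single marker of the lists is not reported here.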

Additional observations from a re-analysis of the deposited data

How the results depend on the processing

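No IkB member that passed turned its direction under any alternative run. The number of members that passed with LPS was 4 in lincRNA-siRNA cells and 5 in control-siRNA cells. It was 1 and 1 with median scaling, 2 and 2 with slide as a block, 3 and 3 without the filter on dim probes and 5 and 5 with normexp. The member calls made with slide as a block did not carry over to slide 2 alone, where 1 group of each LPS comparison held a single array. Leaving out 1 array at a time gave 2 to 5 members in either siRNA, with 2 in control-siRNA cells without control-siRNA array 2 and 2 in lincRNA-siRNA cells without lincRNA-siRNA array 2 or 3, or without array 2 of those cells with LPS. The features passing, 434 and 1257, were 160 and 230 with slide as a block, 52 and 55 on slide 2, and 717 in control-siRNA cells (301 in lincRNA-siRNA cells) without the filter. Leaving out 1 array gave 242 to 447 and 519 to 3873. Between the siRNAs, features passing were 0 with LPS (2 with slide as a block, 0 to 0 with 1 array out) and 0 without LPS (3 with normexp, 2 with the mean of probes, 1 with slide as a block, 0 to 2376 with 1 array out, the highest without control-siRNA array 3). The interaction had 0 (0 to 315 with 1 array out), and no member passed in these 3 comparisons with any array out. The causes were not tested.

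Deviations of same-numbered arrays correlated at -0.299 to 0.469, with 8 of 18 pairs over 0.1. Those of differently numbered arrays correlated at -0.465 to 0.469, with 14 of 36 pairs over 0.1. Whether the replicate numbers pair the samples cannot be told from these values, since slides overlap with groups. With a replicate block 3 members passed in lincRNA-siRNA cells, Nfkbib having adjusted p = 0.0738, and 5 in control-siRNA cells, with 389 and 1613 features.

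Differences that did not pass turned sign as follows. For Nfkbib the interaction was -0.0390 with quantile normalization, -0.0389 with the authors' table, -0.0893 with normexp and -0.23 with slide as a block, the difference with LPS was 0.00231 with median scaling, and that without LPS was 0.00706 with slide. For Nfkbid the LPS effect in control-siRNA cells was -0.11 with median scaling and the interaction -0.0215 with slide. For Bcl3 the interaction was 0.0970 with median scaling and the difference without LPS 0.00391 with slide. For Nfkbiz the difference with LPS was -0.0495 with normexp, -0.000221 with the authors' table and -0.0431 with slide. For Nfkbia the interaction was -0.0442 with normexp and -0.00370 with slide. For Nfkbie the difference with LPS was 0.0206 and the interaction 0.16 with slide. Slide 2 alone gave the same values as slide as a block. With 1 array out, the interaction spanned -0.0519 to 0.13 for Nfkbia, -0.0965 to 0.12 for Nfkbib, -0.41 to 0.0827 for Nfkbie, -0.0788 to 0.18 for Nfkbid and -0.13 to 0.00228 for Bcl3. The difference with LPS spanned -0.11 to 0.10 for Nfkbib and -0.0241 to 0.0499 for Nfkbiz, and that without LPS -0.0516 to 0.0435 for Nfkbib and -0.22 to 0.0611 for Nfkbie.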
